A study of Zea mays with 48 samples.

Results

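A set of 54 probes on a maize (Zea mays) array read differently for the inbred lines UH301 and UH005 in the embryo, while their mean differences in the endosperm stayed under set limits. Of these, 39 read higher in UH301 and 15 read higher in UH005. This split was not the same without embryo replicate 2. A choice made without it, in which fewer replicates had to share a sign, gave 31 probes higher in UH301 and 36 in UH005. Of the 54 themselves, 20 higher in UH301 and 11 higher in UH005 kept a mean of at least 0.6 in size without it. The 54 are 3.57% of the 1511 probes that had enough replicates in both tissues to be chosen. The array held 3585 probes without its control entries. A probe was chosen when it had at least 3 embryo replicates, all of one sign, with a mean difference between the inbreds of at least 0.6 on the log2 scale. In the endosperm, with at least 2 replicates, the mean inbred difference had to be under 0.4, the mean reciprocal difference under 0.5 and the mean mid-parent difference under 0.35, all in absolute size. The probes were thus selected on their embryo inbred difference and on all 3 endosperm differences of this cross, and those values are given below as a description with no test.

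All tissues were collected 6 days after pollination from glasshouse plants. The cross UH301/UH005 compared embryos and endosperm of the selfed inbreds UH301 and UH005 and their reciprocal hybrids 301x005 and 005x301, with 4 replicates per tissue. The cross UH301/UH250 did the same for UH301, UH250 and the hybrids 301x250 and 250x301, with 2 replicates per tissue. No transgene or treatment was named for any group, and by convention the line named first in a hybrid is read as the seed parent. A replicate was a loop of 4 two-channel arrays, each setting 1 hybrid against 1 inbred, with all genotypes of a set pollinated on the same day and each replicate described as biological. The labels do not give the number of ears or kernels pooled into an RNA.

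In maize, double fertilisation gives a diploid embryo and a triploid endosperm within the same kernel, the latter with an extra copy of the seed parent's genome. At 6 days after pollination the embryo is a small group of dividing cells, and the endosperm is also still developing. Inbred maize lines differ widely in sequence and gene content, and such differences in transcript level are a common starting point for studies of hybrid vigour. A transcript can differ between inbreds in a single tissue where a regulatory difference acts only there, or where the transcript is hardly made in the other tissue.

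Every value below is a log2 ratio or a difference of such ratios, so it compares genotypes and gives no level of a transcript. The inbred difference of a replicate is UH301 minus UH005, averaged over a route through each hybrid. The reciprocal difference is 301x005 minus 005x301, and the mid-parent difference is how far the average hybrid lay above the average of its inbred parents. The direction of the deposited ratio is not stated, and the reading used here is the likely one from the order of RNAs in the labels. With the opposite reading the sign of every ratio and difference below would turn, and "higher in UH301" would read "higher in UH005". The positions of the hybrids on a scale between the inbreds would stay as given. In whole-tissue RNA, fewer cells of a type and less RNA per cell cannot be told apart. The endosperm genes FIE1, MEG1 and NRP1 had values on 13, 10 and 13 of 16 embryo arrays and on 20, 19 and 14 of 22 endosperm arrays that carried them, so a value alone did not separate the tissues, and tissue identity was not checked by level.

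Arrays held values for 926 to 3430 of the probes, with array medians between -0.20 and 0.11. Signal intensities were not used, so precision was limited by how many arrays there were. The 623 probes whose IDs begin with P_ had no values in embryo replicates 1 and 2 of this cross, so 0 of them had 3 embryo replicates and none could be chosen. Only 1 of the 54 probes carries a gene name in its ID, V_got1, so the others are given by their IDs with no gene named.

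Among the 39 probes higher in UH301, the embryo mean ran from 0.60 to 1.18, with a median of 0.75. The largest mean belonged to S_CC235, which read 0.27, 3.05 and 0.23 in replicates 1 to 3 (mean 1.18 ± 1.62, SD, n = 3). For that probe replicate 2 stood far above the other two, and within it the array of 301x005 against UH005 gave 5.42. OB5 read 0.71, 2.65 and 0.01 (1.12 ± 1.37, SD, n = 3), again with the highest value in replicate 2 and with replicate 3 close to 0. S_CC198 read 0.80, 1.96 and 0.46 (1.07 ± 0.79, SD, n = 3) and MD10 read 0.63, 1.76 and 0.65 (1.01 ± 0.65, SD, n = 3). Both were clearly above 0 in every replicate and highest in replicate 2. IA5 read 0.63, 1.82 and 0.41 (0.95 ± 0.76, SD, n = 3), and OE1 read 0.71, 2.00 and 0.14 (0.95 ± 0.96, SD, n = 3). The 6 largest means in this direction therefore all had their highest value in replicate 2, and none of the 6 had a value in replicate 4.

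The 15 probes higher in UH005 had embryo means from -1.34 to -0.61, with a median of -0.69. LA12 read -2.51, -1.26 and -0.23 in replicates 1 to 3 (-1.34 ± 1.14, SD, n = 3), and GB10 read -1.75, -0.96 and -0.35 (-1.02 ± 0.70, SD, n = 3). In both, replicate 1 held the most negative value and replicate 3 the least. AE4 read -0.53, -0.29, -0.39 and -2.43 (-0.91 ± 1.02, SD, n = 4), so 3 replicates lay close together and replicate 4 far below them. S_TO37 read -0.67, -1.71 and -0.26 (-0.88 ± 0.75, SD, n = 3), and S_CC72 read -0.23, -2.0 and -0.19 (-0.81 ± 1.04, SD, n = 3), with replicate 2 lowest for each. S_CC859 read -0.81, -0.67 and -0.77 (-0.75 ± 0.07, SD, n = 3), with every replicate near its mean.

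**Figure D1:**
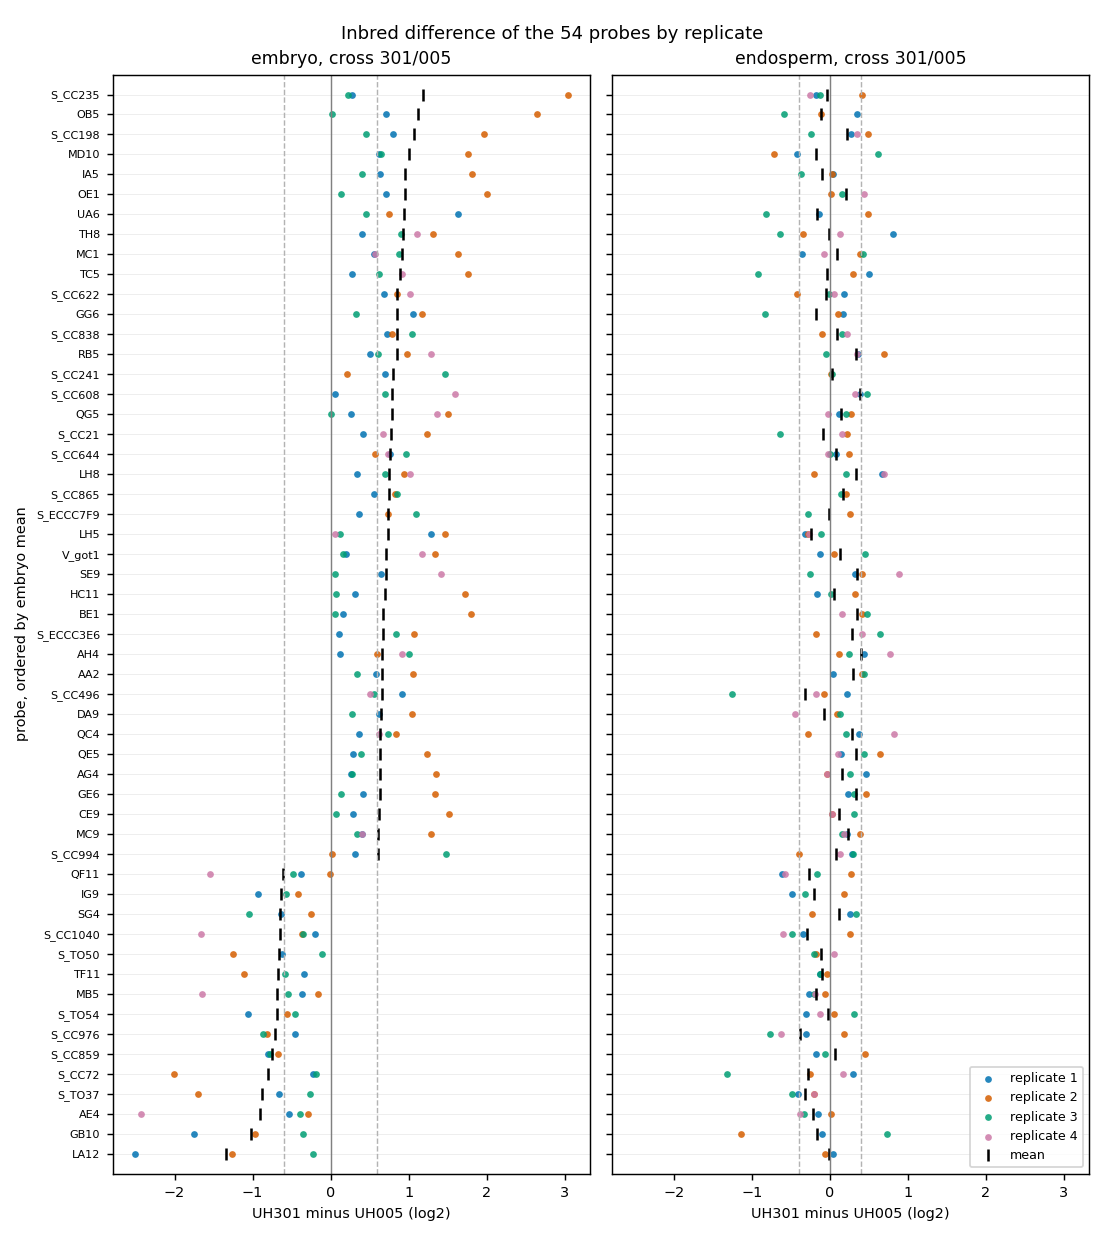
Inbred difference (UH301 minus UH005, log2, horizontal axis) of each of the 54 probes in the embryo (left) and endosperm (right) of cross UH301/UH005; points are replicates, black ticks are means and dashed lines are the limits of 0.6 and 0.4. Embryo points of a probe lie on 1 side of 0 and many have 1 replicate far out. Most endosperm means lie on the same side of 0 as in the embryo (25 of 39 and 13 of 15). The rule used the means of both tissues, so nothing is read from these counts.

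V_got1 carries the symbol of a glutamate-oxaloacetate transaminase, an aspartate aminotransferase that moves amino groups between glutamate and aspartate and so links nitrogen to carbon metabolism. Its inbred difference in the embryo was 0.20, 1.33, 0.16 and 1.17 in replicates 1 to 4 (0.72 ± 0.62, SD, n = 4). Replicates 2 and 4 were high and replicates 1 and 3 close to 0, so the mean rested on a pair of the 4 replicates. These pairs also differed in dye orientation, with the hybrid in channel 1 in replicates 2 and 4. In the endosperm it read -0.12, 0.05 and 0.45 (0.13 ± 0.29, SD, n = 3), which overlapped the lower embryo replicates. The other probes of that enzyme family were not among the 54. V_got2 had an embryo mean of -0.23 over 3 replicates, and V_got3 one of 0.41 over 2, too few to be chosen. V_gln4, whose ID carries a glutamine synthetase symbol, had a mean of -0.99 in the embryo but also -0.84 in the endosperm, so it failed the endosperm limit.

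The embryo differences varied in steadiness. The smallest replicate value was at least 0.5 in size for 9 probes, at least 0.3 for 25 and under 0.1 for 10. The 9 steadiest were MC1, MD10, RB5, S_CC496, S_CC622, S_CC644, S_CC838 and S_CC865, all higher in UH301, and S_CC859, higher in UH005. S_CC644 read 0.77, 0.57, 0.97 and 0.73 (0.76 ± 0.16, SD, n = 4), and RB5 read 0.50, 0.98, 0.60 and 1.29 (0.85 ± 0.36, SD, n = 4). S_CC838 read 0.72, 0.78 and 1.05 (0.85 ± 0.17, SD, n = 3). Across the 54 probes the median SD between embryo replicates was 0.62, against 0.38 over the 1511 eligible probes. In the endosperm it was 0.30 against 0.29. The choice required a large embryo mean and set no limit on spread, so nothing is read from the wider embryo SD.

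The medians of the probes were largest in size in embryo replicates 2 and 4. In both, the hybrid was in channel 1, whereas the odd-numbered replicates had the inbred there. A constant dye effect cancels within a loop for the inbred difference, and whether orientation bore on these values was not tested. The median inbred difference of the probes higher in UH301 was 0.42, 1.26, 0.45 and 0.92 in replicates 1 to 4, over 39, 36, 37 and 17 probes. Over all probes the medians of those replicates were -0.03, 0.12, -0.04 and 0.03, with SDs of 0.51, 0.83, 0.62 and 0.58, so replicate 2 was also the widest of the 4. Replicate 2 held the largest value for 25 of the 39 probes, and replicates 1, 3 and 4 held it for 2, 7 and 5. Of the 54 probes, 31 kept a mean of at least 0.6 in size without replicate 2, 20 of them higher in UH301 and 11 higher in UH005. Without replicate 1, 3 or 4, the number was 50, 48 and 45.

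Of the 15 probes higher in UH005, replicates 1 to 4 held the value largest in size for 5, 4, 2 and 4. Their replicate medians were -0.63, -0.67, -0.45 and -1.66, the last over only 4 probes. Those 4 were AE4, S_CC1040, QF11 and MB5, and each had its most negative value in replicate 4, at -2.43, -1.67, -1.55 and -1.65. Single arrays stood behind these extremes. In replicate 4, the array of 301x005 against UH301 held only 1367 values and gave a median of 2.70 for the probes higher in UH005. AE4 read 3.99 on it, whereas MB5 read 0.31 there and -2.34 on the array of 005x301 against UH005. The latter array held only 926 values, with a median of 0.06 over all probes. Its medians were 1.12 for the probes higher in UH301 and -0.77 for those higher in UH005. In replicate 2, the array of 005x301 against UH301 gave a median of -1.0 for the probes higher in UH301, against -0.20 for all probes on that array. What part these arrays had in the choice of probes was not tested.

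**Figure D2:**
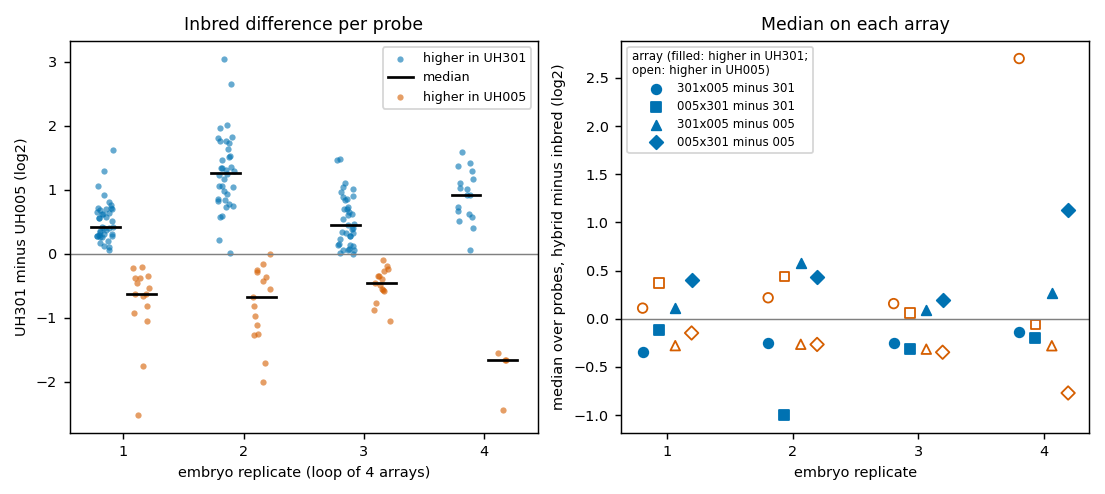
Left: inbred difference (log2) of each probe in embryo replicates 1 to 4, with black bars at the medians. Right: median hybrid minus inbred ratio (log2) of the same probes on each of the 16 embryo arrays. Replicate 2 holds the highest median of the probes higher in UH301 (1.26), and 1 array of replicate 4 has a median of 2.70 for the probes higher in UH005.

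Each replicate measures the inbred difference by a route through either hybrid, and 32 of the 54 probes had the same sign by both routes in every replicate. The choice required 1 sign of the average of these routes, which partly fixes that count. The share over the eligible probes is not given. The routes differed by more than 1 in at least 1 replicate for 29 of 54 probes (53.7%), against 549 of the 1511 eligible probes (36.3%). The choice used these arrays and set no limit on such gaps, so nothing is read from the higher share. Such gaps fell in replicate 1 for 8 probes, in replicate 2 for 14, in replicate 3 for 5 and in replicate 4 for 11. Split by replicate, the mean was at least 0.6 in size over replicates 1 and 2 for 43 probes, over replicates 3 and 4 for 28, and over each pair for 17.

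In the endosperm the probes' mean inbred differences were small, as the limit required, and most had the sign of the embryo mean. Among the probes higher in UH301 in the embryo, the endosperm mean ran from -0.32 to 0.39 with a median of 0.09, and 25 of 39 were above 0. Among those higher in UH005 it ran from -0.38 to 0.12 with a median of -0.18, and 13 of 15 were below 0. Endosperm means of at least 0.2 with the embryo's sign were held by 14 of the 39 and 7 of the 15. Only 11 of the 39 and 3 of the 15 had the embryo's sign in every endosperm replicate. The rule used these values, and shares over all eligible probes are not given here, so no lean is read from them. The embryo and endosperm replicates of a probe did not overlap at all for 14 of the 39 and 5 of the 15, beside 136 of the 1511 eligible probes (9.0%); the limits set the tissues apart, so nothing is read from this. S_CC622 was such a case, with 0.69, 0.85 and 1.01 in the embryo and 0.18, -0.43, -0.01 and 0.05 in the endosperm. RB5 was not, since its endosperm replicates of 0.36, 0.69, -0.05 and 0.35 reached into its embryo range. The set is thus one of differences whose endosperm mean stayed under a limit, and absence from the endosperm was not shown.

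The limits passed through a continuous range of values. Just inside the embryo limit lay S_CC994 at 0.60, MC9 at 0.60 and QF11 at -0.61, and just outside it lay S_CC724 at -0.596, NA1 at 0.59 and S_CC523 at -0.59. Just inside the endosperm limit on the inbred difference lay AH4 at 0.39, S_CC608 at 0.39 and S_CC976 at -0.38, and just outside lay IC11 at -0.40, AG3 at -0.43 and JB2 at 0.44. For the endosperm reciprocal difference SG4 at 0.49, S_CC859 at 0.45 and OB5 at -0.43 were the closest inside and PF7 at -0.73 was outside. For the endosperm mid-parent difference S_CC198 at 0.35, TF11 at -0.34 and S_ECCC3E6 at -0.32 were inside, and PD7 at 0.38, S_CCEC5D12 at 0.60 and JA12 at -0.75 were outside.

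Of 1588 probes with at least 3 embryo replicates, 139 (8.75%) met the embryo conditions, 87 higher in UH301 and 52 higher in UH005. The endosperm inbred difference removed 67 of the 139, and 60 of these had the same sign in both tissues while 7 had opposite signs. A further 13 had fewer than 2 endosperm replicates, and 5 failed on the reciprocal or mid-parent difference, which left the 54.

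The hybrids mostly lay between their parents. On a scale with UH005 at 0 and UH301 at 1, the 39 probes higher in UH301 had a median position of 0.45 in 301x005 (quartiles 0.30 and 0.60) and of 0.58 in 005x301 (quartiles 0.31 and 0.78). Both hybrids lay between the inbreds for 34 of the 39. MC1 was typical, at 0.45 and 0.52, and S_CC198 lay nearer UH005, at 0.29 in each hybrid. The exceptions included AA2, at -0.06 and -0.51, and S_CC235, at 1.34 in 301x005. For AA2, 301x005 read below both inbreds, at -0.31 against UH301 and -0.42 against UH005. Its other hybrid, 005x301, read -1.38 against UH301 but 0.05 on the arrays set directly against UH005. The position of -0.51 averages over these arrays, so a level below UH005 was not settled for 005x301. These positions share their arrays with the inbred difference that chose the probes and are given with no test.

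For the 15 probes higher in UH005 the median position was 0.47 in 301x005 (quartiles 0.25 and 0.71) and 0.33 in 005x301 (quartiles 0.04 and 0.73). Both hybrids lay between the inbreds for 8 of these 15. S_TO54 read above both inbreds in 005x301, at a position of -0.68, and S_TO50 was at UH005's level in 005x301 (-0.01) but beyond UH301's in 301x005 (1.4). MB5 went the other way, at 0.71 in 301x005 and 1.18 in 005x301.

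**Figure D3:**
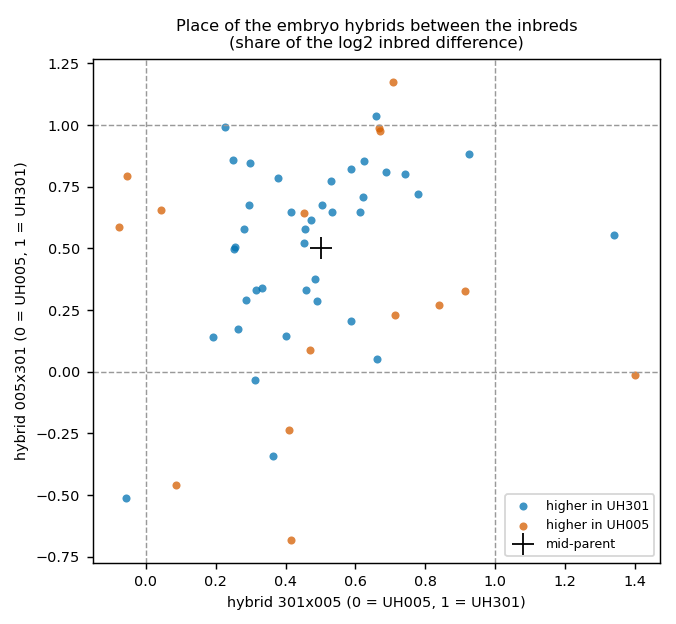
Position of hybrid 301x005 (horizontal) and hybrid 005x301 (vertical) in the embryo as a share of the log2 inbred difference, with 0 at UH005, 1 at UH301 and the cross at the mid-parent. Each point is a probe; both hybrids lie between the inbreds for 34 of the 39 probes higher in UH301 and for 8 of the 15 higher in UH005.

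The embryo reciprocal difference, which asks whether the direction of the cross changes the hybrid, was not used to choose the probes. It comes from the same arrays as the embryo inbred difference, however, so its counts are not independent of the choice. An extreme array moves both differences. In replicate 2 of S_CC235, with 5.42 on 1 array, the inbred difference was 3.05 and the reciprocal difference 2.93. limma called 0 of the 54 probes at an adjusted p of 0.05, where it called 0 of 1892 probes (0.0%). At an unadjusted p under 0.05 it named 6 of the 54, against 117 of the 1892 (6.18%). The difference was above 0 for 14 and below 0 for 25 of the probes higher in UH301, with a median of -0.05. It was above 0 for 7 and below 0 for 8 of those higher in UH005, with a median of -0.35. Neither median had a settled sign: without replicate 1 they were 0.06 and 0.14, and the latter was 0.61 without replicate 2 (4 probes) and 0.40 over the 3 probes with a value on all arrays. Over all probes 56.8% were above 0, and the median was 0.04.

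The 2 lowest p-values of this contrast belonged to S_TO50 and S_TO54. S_TO50 read -0.61, -1.12 and -1.08 in replicates 1 to 3, lower in 301x005 than in 005x301 each time (-0.93 ± 0.16, SE, n = 3, limma adjusted p = 0.455). S_TO54 read -1.01, -0.51 and -0.75 (-0.76 ± 0.18, SE, n = 3, limma adjusted p = 0.723), and S_TO37 read -0.34, -0.98 and -0.17. All 3 replicates of each probe were below 0, none passed the adjusted threshold, and in each the hybrid with the UH005 seed parent lay further to UH005's side. TH8, higher in UH301, came next by p, with -0.90, -0.18, -0.17 and -1.60 in replicates 1 to 4 (-0.71 ± 0.22, SE, n = 4, limma adjusted p = 0.723). Its hybrid with the UH005 seed parent lay nearer to UH301, at a position of 0.99 against 0.23 for 301x005. In the other direction AE4 had 0.61 ± 0.25 (SE, n = 4, limma adjusted p = 0.782) and QF11 had 0.51 ± 0.25 (SE, n = 4, limma adjusted p = 0.793), each above 0 in 3 of 4 replicates. In replicate 4 the reciprocal difference of AE4, S_CC1040, QF11 and MB5 was 0.99 to 2.01, on the same arrays that held their extreme inbred values.

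The embryo mid-parent difference asks whether the hybrids depart from the mean of their parents. It too shares its arrays with the inbred difference that chose the probes, so its counts are not independent of the choice. limma called 0 of the 53 probes it could fit, where it called 0 of 1752 (0.0%). At an unadjusted p under 0.05 it named 8 of the 53, against 129 of the 1752 (7.36%). The difference was above 0 for 28 probes and below 0 for 25, and for 48.5% of all probes it was above 0. V_got1 read -0.32, -0.29, -0.28 and -0.15 in replicates 1 to 4, so both hybrids together lay below the parental mean each time (-0.26 ± 0.08, SE, n = 4, limma adjusted p = 0.626). AA2 had -0.46 ± 0.13 (SE, n = 3, limma adjusted p = 0.649), TC5 had 0.36 ± 0.11 (SE, n = 4, limma adjusted p = 0.649) and S_TO54 had 0.41 ± 0.13 (SE, n = 3, limma adjusted p = 0.649). Each of these 4 probes had 1 sign in every replicate, and none passed the adjusted threshold.

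The cross UH301/UH250 offers a comparison whose ratios did not choose the probes. However, limma took the spread of each probe from the loops of both crosses together, including the UH301/UH005 loops that chose the probes. The SEs and p-values of this cross thus rest partly on those loops, while n counts only its own replicates. The labels do not say whether the UH301 RNA was the same extract in both crosses, so values of the crosses stand side by side and their likeness was not tested. In its embryos limma tested 34 of the 54 probes and called 0 for UH301 against UH250, where it called 0 of 1604 probes (0.0%). At an unadjusted p under 0.05 it named 7 of the 34, against 7.42% of all probes. Among the 29 tested probes that were higher in UH301 than in UH005, 25 were above 0, with a median of 0.27, against 58.9% and a median of 0.07 over all probes tested. By replicate, 20 and 26 of the 29 were above 0, against 56.5% and 51.7% of all probes. In both replicates 17 were above 0 and 0 below 0, against 28.8% and 21.5% of all probes with both replicates. Of the 5 tested probes higher in UH005, 4 were above 0 (median 0.11). By replicate 4 and 2 of the 5 were above 0, with medians of 0.30 and -0.07, so their sign was not settled.

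S_CC838 read 0.77 and 0.75 in the UH301/UH250 embryos (0.76 ± 0.20, SE, n = 2, limma adjusted p = 0.426), and S_CC622 read 0.68 and 0.78 (0.73 ± 0.21, SE, n = 2, limma adjusted p = 0.426). These values were close to each probe's own difference from UH005, at 0.85 for each. S_CC644 read 0.74 and 0.53, and TC5 read 1.18 and 0.98. On the low side S_CC496 read -1.01 and 0.26 (-0.38 ± 0.36, SE, n = 2, limma adjusted p = 0.879), so its replicates disagreed in sign. IG9, higher in UH005 than in UH301, read -0.39 and -0.30 (-0.35 ± 0.25, SE, n = 2, limma adjusted p = 0.844). V_got1 read 0.64 and -0.20, on both sides of 0.

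In the UH301/UH250 endosperm limma tested 41 of the 54 probes and called 0 for the inbred difference, where it called 0 of 2177 (0.0%). At an unadjusted p under 0.05 it named 6 of the 41, against 6.2% of all probes. Of 32 tested probes higher in UH301 than in UH005 in the embryo, 25 were above 0 here with a median of 0.24, whereas 41.4% of all probes tested were above 0 and their median was -0.06. Both replicates were above 0 for 22 of the 32 and below 0 for 5, against 28.9% and 38.1% of all probes with both replicates. Of 9 tested probes higher in UH005, 6 were below 0 in both replicates, with a median of -0.39. Against UH250, then, values leaned the same way in the tissue in which the difference from UH005 had been required to be small. Of 26 probes higher in UH301 with both tissues, 19 were above 0 in both. The share over all probes with both tissues is not given, so nothing is read from that count.

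MC1 read 1.99 and 0.09 in the UH301/UH250 endosperm (1.04 ± 0.39, SE, n = 2, limma adjusted p = 0.770), a mean carried by replicate 1. S_CC198 read 0.66 and 1.27 (0.97 ± 0.40, SE, n = 2, limma adjusted p = 0.774), although its embryo replicates of that cross were -1.05 and 0.41. MB5 read -0.75 and -0.71 (-0.73 ± 0.30, SE, n = 2, limma adjusted p = 0.774), and TF11 read -0.66 and -0.58 (-0.62 ± 0.23, SE, n = 2, limma adjusted p = 0.770). Both probes read lower in UH301 than in UH250 in each endosperm replicate. V_got1 stayed near 0, at 0.07 and -0.04. The difference between embryo and endosperm in this cross was tested with limma for 30 of the 54 probes. It was called for 0 of the 30, where it was called for 0 of 1483 probes. An unadjusted p under 0.05 was held by 1 of the 30, against 51 of the 1483.

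**Figure D4:**
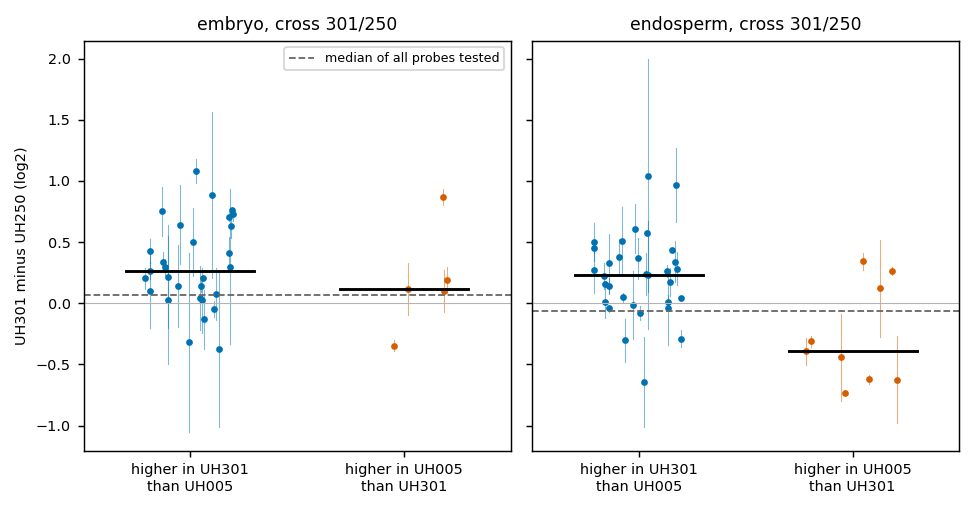
UH301 minus UH250 (log2) of the tested probes in the embryo (left) and endosperm (right) of cross UH301/UH250; points are means of 2 replicates, thin lines join the replicates, thick bars are medians and the dashed line is the median of all probes tested. Probes higher in UH301 than in UH005 lie mostly above 0 in both tissues (25 of 29 and 25 of 32), and those higher in UH005 have a median of -0.39 in the endosperm.

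For the probes higher in UH301 the lean was also present without those that rested on embryo replicate 2 of cross UH301/UH005. Among the probes whose mean stayed at 0.6 or more without it, 12 of 15 were above 0 in the UH301/UH250 embryos and 14 of 16 in the endosperm. For those higher in UH005, 4 of 5 were above 0 in the embryos (median 0.11) and 1 of 6 in the endosperm. The 60 probes left out for differing the same way in both tissues of cross UH301/UH005 give a setting for these counts. Of those higher in UH301, 19 of 21 were above 0 in the UH301/UH250 embryos (median 0.26) and 26 of 26 in the endosperm (median 0.55). Of those higher in UH005, 2 of 8 were above 0 in the embryos (median -0.17) and 4 of 17 in the endosperm (median -0.29).

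The reciprocal hybrids 301x250 and 250x301 did not differ past the threshold for any of the 54 probes. In the embryo limma called 0 of 34, where it called 4 of 1604 probes (0.249%), and at an unadjusted p under 0.05 it named 5 of the 34, against 17.7% of all probes. Of 29 tested probes higher in UH301, 21 were above 0 with a median of 0.21, and all 5 tested probes higher in UH005 were below 0 with a median of -0.16, which was 0.044 without replicate 2. Over all probes 54.1% were above 0. OB5 came closest at 0.99 ± 0.24 (SE, n = 2, limma adjusted p = 0.0998), above 0 in both replicates, and IA5 had 0.72 ± 0.19 (SE, n = 2, limma adjusted p = 0.114). DA9, at -0.37 ± 0.23 (SE, n = 2, limma adjusted p = 0.426), had replicates of both signs, and S_CC994 had -0.42 ± 0.21 (SE, n = 2, limma adjusted p = 0.324). In the endosperm limma called 0 of 41, where it called 0 of 2177 (0.0%), and named 1 at an unadjusted p under 0.05, against 1.33% of all probes. The difference was above 0 for 28 of the 41, against 55.7%. The 1 probe named was MC1, with 0.85 ± 0.29 (SE, n = 2, limma adjusted p = 1.00).

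The mid-parent difference of that cross was called by limma for 0 of 34 probes in the embryo and 0 of 41 in the endosperm, where it called 0 of 1460 (0.0%) and 0 of 1890 (0.0%). At an unadjusted p under 0.05 it named 5 of the 34, against 6.44% of all probes, and 1 of the 41, against 1.22%. The difference was above 0 for 17 of the 34, against 46.3% of all probes, and for 23 of the 41, against 45.3%. TC5 had 0.62 ± 0.16 (SE, n = 2, limma adjusted p = 0.701) in the embryo, and IG9 had -0.30 ± 0.12 and S_ECCC3E6 had -0.29 ± 0.12 (SE, n = 2 each, limma adjusted p = 0.701). V_got1 had -0.25 ± 0.11 (SE, n = 2), on the same side as in cross UH301/UH005. In the endosperm MC1 had 0.48 ± 0.12 (SE, n = 2, limma adjusted p = 1.00).

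By type of ID, 33 of 886 eligible probes with a plate position as ID were chosen (3.72%), as were 15 of 557 S_CC probes (2.69%), 3 of 31 S_TO probes (9.68%), 2 of 31 other S_ probes and 1 of 4 V_ probes. The 3 S_TO probes were all higher in UH005. Plate-type IDs of 15 of 21 first letters held at least 1 of the 54, so the set was not drawn from a single plate. Of 85 probes listed for chromatin genes, 3 had enough replicates to be chosen, S_DMT101, S_DMT106 and S_Met2a, which carry DNA methyltransferase names, and 0 were. Of 4 probes listed for central metabolism 3 were eligible and 0 were chosen.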

How the data were processed

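The values deposited are log ratios of the 2 channels, which the authors computed for each array and which are read here as log2. Their log base, background correction, normalization and direction were not stated in the labels or the table. Per the labels' protocols, cDNA was made by template switching and amplified by PCR before dye labelling, which can alter ratios.

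Odd-numbered replicates carried the inbred in channel 1, so their ratios changed sign, and every ratio then read hybrid over inbred. Each of 12 loops gave the 3 differences per probe, fitted with limma 3.58.1 (lmFit, eBayes; R 4.3.3) with 1 coefficient per cross and tissue and a dye coefficient for the mid-parent difference. The spread of a probe was shared over all 12 loops, so each SE draws on both crosses and both tissues. Probes needed at least 2 loops, both dye orientations and 3 residual degrees of freedom for each of the 3 differences. P-values were adjusted by Benjamini-Hochberg over all tested probes (threshold 0.05). The fit was tested on simulated data. Pollinations of a set shared a day, per the labels, so a replicate number pairs its 4 arrays (correlation of arrays within a loop 0.17). 0 pairs of arrays held identical values.

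The probes, gene lists and filters were chosen with earlier results of these data known. Named probes were V_got1, the 6 largest embryo means in each direction, the 2 lowest p-values in each direction of each tested contrast, and the 3 probes nearest each limit; other probes were named after their values were seen. Alternatives were centring, scaling, single arrays, other limits and left-out replicates. The 7 control entries of 3592 were left out.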

Additional observations from a re-analysis of the deposited data

Results flagged for a closer look

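Of 74 groups of 4 replicates examined, 4 had 1 replicate far from the other 3, and chance alone marks about 1 in 20 groups. AE4 had an inbred difference of -2.43 in embryo replicate 4, where the others lay between -0.53 and -0.29. S_CC1040 had -1.67 in the same replicate, where the others lay between -0.37 and -0.21. MC9 had 1.29 in embryo replicate 2, where the others lay between 0.33 and 0.40. For the embryo reciprocal difference, AH4 had 0.23 in replicate 2, where the others lay between -0.47 and -0.36.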

How the results depend on the processing

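The number of probes chosen, 54, was 53 with centred arrays (45 shared; 34 higher in UH301 and 19 in UH005), 40 with scaled arrays (35 shared; 29 and 11), 79 and 33 with embryo means of at least 0.5 and 0.7, and 33 to 128 when a replicate was left out, highest without embryo replicate 3 and lowest without endosperm replicate 2. It was 104 without embryo replicate 1, since fewer replicates then had to share a sign. Without embryo replicate 2, where again fewer replicates had to share a sign, it was 67, of which 31 were shared. Of the 67, 31 were higher in UH301 and 36 in UH005, so the majority turned. Among the shared probes it did not turn, with 20 higher in UH301 and 11 in UH005.

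Single arrays with the replicate block gave 6 called probes for the UH301/UH005 embryo reciprocal difference and 1 for its mid-parent difference, and without the block 4 and 13. For the UH301/UH250 inbred difference the block gave 5 in each tissue and no block 4 in each, and for its embryo reciprocal difference 24 and 8. Without the block the UH301/UH250 endosperm mid-parent difference had 1. These fits count arrays of a loop as more than 1 observation. The UH301/UH250 embryo reciprocal difference (4 called) had 0 with scaled arrays, 26 over probes on all arrays, 0 with the spread of its own loops and 1 to 7 without a replicate. The UH301/UH250 embryo inbred difference (0 called) had 3 with the spread of its own loops and 0 to 3 without a replicate, and the endosperm one had 4 with scaled arrays and 0 to 1 without a replicate. The endosperm reciprocal difference had 0 to 2 without a replicate, and the embryo mid-parent difference had 1 over probes on all arrays. The cause of these shifts was not tested.

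For the probes higher in UH301, the UH301/UH250 endosperm median of the inbred difference, 0.24, was 0.33 with scaled arrays, 0.28 over probes on all arrays and 0.15 to 0.21 without a replicate. Their endosperm reciprocal median, 0.06, was 0.19 over probes on all arrays and 0.048 to 0.11 without a replicate. Their mid-parent median was -0.071 to 0.13 in the embryo without a replicate. In the endosperm it was 0.069 centred, 0.093 scaled, 0.10 over probes on all arrays and -0.0084 to 0.081 without a replicate, so it had no settled sign. For the probes higher in UH005 the endosperm mid-parent median was -0.15 over probes on all arrays.

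The share above 0 for the UH301/UH250 inbred difference, chosen after seeing the data, was 69.0% to 89.7% by single replicate in the embryo and 75% to 78.1% in the endosperm for the probes higher in UH301. For those higher in UH005 it was 40.0% to 80.0% and 22.2% to 33.3%. Among probes kept without embryo replicate 2, it was 87.5% and 16.7% in the endosperm. S_CC496 turned from -0.38 to 0.26 in the UH301/UH250 embryo inbred difference without replicate 1, and DA9 from -0.37 to 0.036 in the reciprocal difference; without replicate 2 they were -1.01 and -0.79. Of the other medians, which carry no test, 82 moved by less than 1 SD, but 15 of these turned sign and 67 kept it. In the UH301/UH005 embryo, the reciprocal median of the probes higher in UH301 (-0.05) was 0.06 without replicate 1. That of the probes higher in UH005 (-0.35) was 0.40 over probes on all arrays, 0.14 without replicate 1 and 0.61 without replicate 2. The mid-parent median of the probes higher in UH301 (-0.0099) turned to between 0.0016 and 0.12 under 7 alternatives. The rest were medians in UH301/UH250 with a replicate left out. The other 64 counts and shares stayed within the limits set for them, and the other 243 values of single probes kept their direction and their side of the threshold. With 2 loops, the UH301/UH250 mid-parent difference could not be fitted on the spread of its own loops. Signal over background was not used here, so what dim spots limit is unknown.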
